A study of Homo sapiens with 8 samples.

Results

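Glycolysis enzymes and genes known to be induced by low oxygen were followed in PNT2, an immortalized cell line from human prostatic epithelium, after depletion of the epithelial splicing factors ESRP1 and ESRP2. The list holds 40 genes named by symbol, and a gene was taken as measured where the array annotation gives a row that gene's symbol and no other. By this rule 35 of the 40 genes had a value, in 37 of the table's 18495 rows. SLC2A3, PGAM1, EGLN1, CA9 and ANKRD37 had no row of their own and are not analysed here. The series compared 4 arrays of cells given small interfering RNA (siRNA) against both ESRP1 and ESRP2 (siESRP) with 4 control arrays (siGFP), whose cells received siRNA to the green fluorescent protein sequence. Both groups were the same line grown in the same serum-containing medium, and the labels name no oxygen, glucose or drug treatment for either. The values used here are gene-level intensities from exon arrays, and splicing was not analysed.

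In glycolysis, glucose enters through membrane transporters, is trapped by hexokinase and is split and oxidized to pyruvate, which becomes lactate or enters mitochondria through pyruvate dehydrogenase. Hypoxia-inducible factor (HIF) pairs an oxygen-sensitive subunit, encoded by HIF1A or EPAS1, with the ARNT protein. When oxygen is present, prolyl hydroxylases of the EGLN family mark the sensitive subunit for destruction by the VHL ligase. Stabilized HIF binds a short DNA core, ACGTG or GCGTG, and is known to raise many glycolytic genes together with genes for blood vessel growth, acid balance, matrix and mitochondrial turnover.

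Both siRNA targets were lower. ESRP1 had normalized intensities of 568, 499, 660 and 599 on the siESRP arrays, against 2232, 2527, 2617 and 2379 on the siGFP arrays, and was 76.2% lower (limma adjusted p = 6.58e-05). The row shared by ESRP2 and another gene was 72.1% lower (limma adjusted p = 0.000336). Median deposited intensity per array ran from 233 to 286. Separate cultures are not stated for the replicates of a group, so the p-values reflect sample-to-sample spread that may be only technical. Of 8 epithelial markers, CDH1, KRT18 and KRT19 rose and 5 did not pass, and their summed intensity was 26437 to 27271 on siESRP arrays and 23705 to 24449 on siGFP arrays. Of 6 fibroblast markers COL1A1 fell, with sums of 372 to 442 on siESRP arrays and 466 to 537 on siGFP arrays. Of 4 endothelial markers CDH5 rose and TEK fell, with sums of 381 to 473 on siESRP arrays and 313 to 371 on siGFP arrays. TEK was near background, at 22.1 ± 2.63 in siESRP and 30.25 ± 1.38 in siGFP (SD, n = 4 each). The 4 leukocyte markers had no value above 167.1 and none passed, and none of 3 neuroendocrine markers passed. The part of these marker shifts in the results below was not tested. In RNA from whole cultures, fewer cells of a type and less RNA per cell cannot be told apart.

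Most glycolytic enzymes did not pass the test, while GPI, PFKM and ALDOC rose and hypoxia-induced genes changed in both directions. Of 35 measured genes, 9 rose, 3 fell and 23 did not pass (limma on log2 intensities, Benjamini-Hochberg adjusted p under 0.05 over all rows). ANGPTL4, NDRG1, PDK3, PFKM, ALDOC, P4HA2, DDIT4, GPI and PDK1 rose, and ADM, BNIP3 and KDM3A fell. The share that passed was 34.3%, against 20.2% of all rows in the comparison (10.9% higher and 9.31% lower). The listed genes are mostly bright, and among rows whose higher group mean reached 100 the share was 28.4% (15.0% higher and 13.4% lower). The overall share of the list was thus near that of bright rows, with 25.7% of the genes higher and 8.57% lower. The median log2 difference, siESRP minus siGFP, was 0.09 over the 35 genes and −0.02 over all rows. No median was taken over bright rows alone. The siESRP and siGFP values were separated without overlap in 14 of 35 listed genes, against 24.7% of all rows and 34.3% of bright rows. ANGPTL4 and NDRG1 passed with a change of at least 1.5-fold, 2 of 35 listed genes, against 1309 of all 18495 rows.

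**Figure D1:**
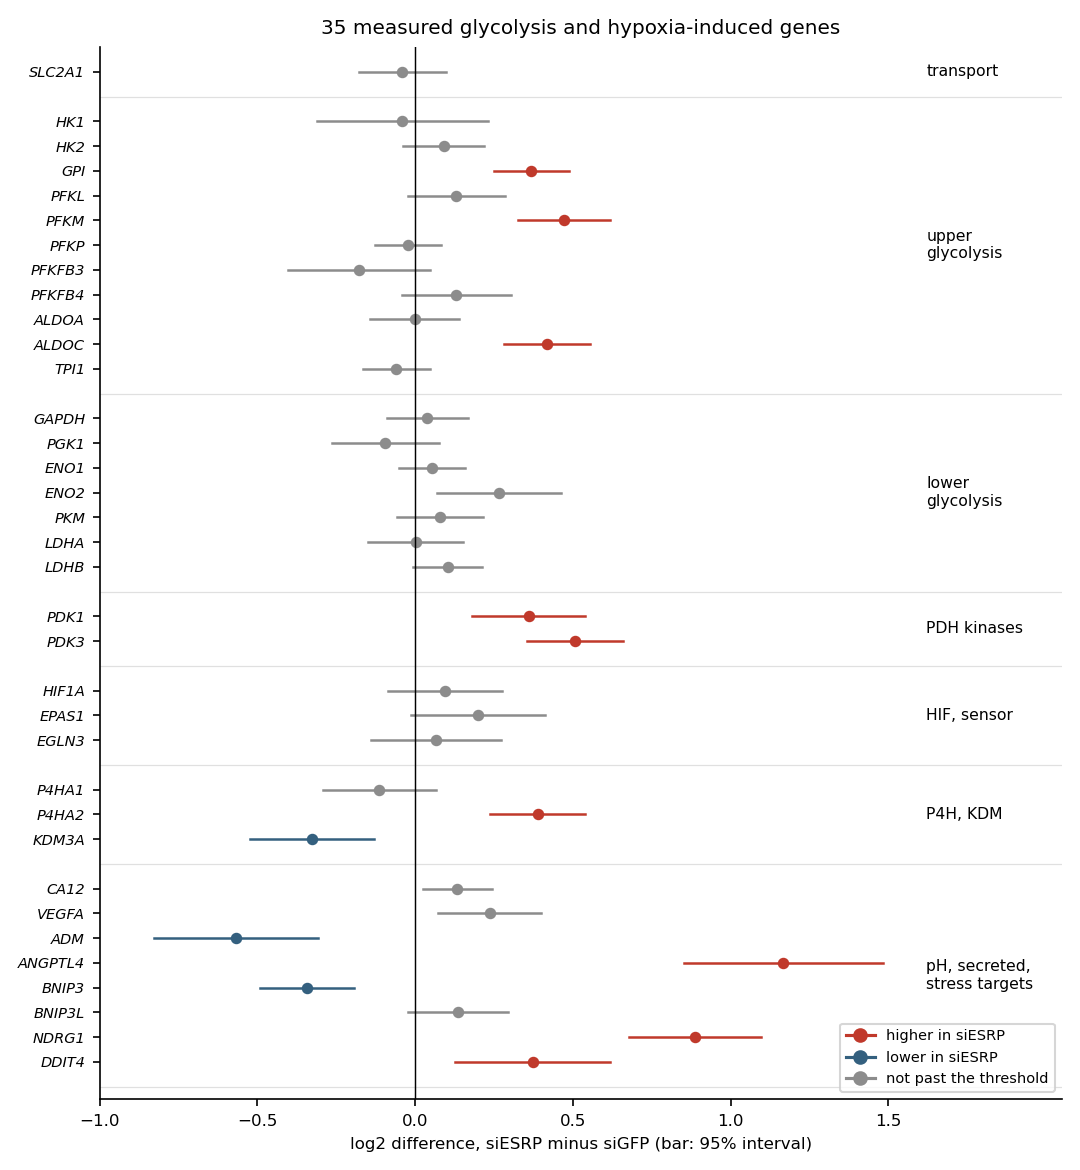
Log2 difference in intensity (siESRP minus siGFP) on the horizontal axis for each of the 35 measured genes, ordered by role, with the 95% interval of the limma fit as a bar. Red genes passed the threshold upward (9), blue genes downward (3), and grey genes did not pass (23). All 7 measured genes of lower glycolysis are grey, while ANGPTL4 and NDRG1 lie farthest to the right.

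Promoter sequences are shown for 4 of these genes, the pair with the largest rise and the pair with the largest fall among the called genes that have a RefSeq promoter here and a single annotated start, so that the HIF core can be read in genes that moved in opposite directions. Each is the 250 bases before the RefSeq start (GRCh38.p14), written 5′ to 3′ on the gene's strand, with each HIF core in capitals on either strand. From the other strand ACGTG reads as CACGT, while the second core, GCGTG, is seen there as CACGC. ANGPTL4 lies on the plus strand (chr19:8363905-8364154), PDK3 on the plus strand (chrX:24465036-24465285), ADM on the plus strand (chr11:10304823-10305072) and BNIP3 on the minus strand (chr10:131981924-131982173).
ANGPTL4: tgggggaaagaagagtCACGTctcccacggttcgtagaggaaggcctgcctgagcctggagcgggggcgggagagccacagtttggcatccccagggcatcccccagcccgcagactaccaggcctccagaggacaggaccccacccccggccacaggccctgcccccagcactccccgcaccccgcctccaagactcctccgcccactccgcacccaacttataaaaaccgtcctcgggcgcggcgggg
PDK3: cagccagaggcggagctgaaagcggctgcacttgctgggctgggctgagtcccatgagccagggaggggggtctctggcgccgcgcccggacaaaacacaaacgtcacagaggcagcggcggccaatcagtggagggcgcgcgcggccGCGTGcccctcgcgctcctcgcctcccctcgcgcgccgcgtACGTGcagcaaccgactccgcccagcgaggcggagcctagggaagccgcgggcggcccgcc
ADM: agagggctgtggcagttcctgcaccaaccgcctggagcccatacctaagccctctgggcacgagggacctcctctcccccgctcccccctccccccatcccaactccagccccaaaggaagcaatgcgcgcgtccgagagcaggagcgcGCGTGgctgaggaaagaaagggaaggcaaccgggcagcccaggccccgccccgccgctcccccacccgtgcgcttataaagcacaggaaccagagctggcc
BNIP3: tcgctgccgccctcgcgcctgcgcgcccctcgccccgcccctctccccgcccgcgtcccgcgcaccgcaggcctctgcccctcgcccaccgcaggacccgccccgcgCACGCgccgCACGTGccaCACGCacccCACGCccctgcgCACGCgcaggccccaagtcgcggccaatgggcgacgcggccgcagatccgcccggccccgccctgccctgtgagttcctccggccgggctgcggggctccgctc
The ANGPTL4 window held a single CACGT, 234 bases before the start, and PDK3 held ACGTG at 61 bases and GCGTG at 102 bases. ADM held GCGTG at 101 bases. BNIP3 held a palindromic CACGTG, read once on each strand from 134 bases, among 4 CACGC. A core was thus present in all 4 windows, in the pair that rose and in the pair that fell.

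RefSeq promoters were matched for 32 of the 35 genes, all but BNIP3L, NDRG1 and VEGFA. At least 1 start of a gene held ACGTG in 18 of the 32 (56.2%), against 21.7% of 27305 genes in the promoter table, and GCGTG in 19 (59.4%), against 36.2%. These windows were richer in G and C, at 67.5% on average against 56.8% for all genes, and both cores contain CG. ACGTG was in 7 of 8 genes that rose, 1 of 3 that fell and 10 of 21 that did not pass. GCGTG was in 3, 3 and 13 of them. Genes with several starts had more windows to match. The LDHA window with the most matches held 5 matches to ACGTG over both strands, and LDHA did not pass. A match is a string of letters and not a measured site, and a window without one says nothing of HIF.

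Among transport and upper glycolysis genes, 3 enzymes rose and the rest did not pass. The share of the 11 upper glycolysis genes that passed was 27.3%, near the 28.4% of bright rows, against 20.2% of all rows. All of these calls were upward, where 10.9% of all rows and 15.0% of bright rows were called higher. GPI, which converts glucose-6-phosphate to fructose-6-phosphate, had intensities of 3967, 4148, 3778 and 4135 in siESRP, against 3156, 3100, 2929 and 3235 in siGFP. All 4 siESRP values lay above the highest siGFP value, and the rise was 1.29-fold (log2 difference 0.37 ± 0.05 SE, adjusted p = 0.00310). PFKM, the muscle-type phosphofructokinase of the committed step, had intensities of 677, 684, 635 and 711 in siESRP, against 500, 525, 481 and 448 in siGFP. The groups did not overlap, and the rise was 1.39-fold (0.47 ± 0.06 SE, adjusted p = 0.00258). ALDOC, the brain-type aldolase, had intensities of 921, 1033, 912 and 938 in siESRP, against 748, 731, 676 and 692 in siGFP. It rose 1.34-fold (0.42 ± 0.06 SE, adjusted p = 0.00321), again without overlap.

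The other upper-pathway genes differed by less than the test could call. SLC2A1, the main glucose transporter of dividing cells, averaged 3230 ± 142 in siESRP and 3325 ± 199 in siGFP (SD, n = 4 each). Its log2 difference was −0.04, with a 95% interval from −0.18 to 0.10. The hexokinases HK1 and HK2 had log2 differences of −0.04 and 0.09. The liver-type and platelet-type phosphofructokinases PFKL and PFKP had 0.13 and −0.02, and the PFKP value changed sign, to 0.004, with intensities as deposited. The bifunctional enzymes PFKFB3 and PFKFB4, which set the level of a phosphofructokinase activator, had −0.18 and 0.13. PFKFB3 passed as lower without siESRP replicate 2 (adjusted p = 0.0383). ALDOA, the ubiquitous aldolase, had 0.00, with an interval from −0.14 to 0.14. TPI1, the triose phosphate isomerase, had 2 rows, at −0.06 and 0.07, and neither passed.

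None of the 7 measured genes of lower glycolysis passed, where 20.2% of all rows and 28.4% of bright rows did. LDHA, the lactate dehydrogenase subunit that HIF is known to raise, averaged 7462 ± 460 in siESRP and 7455 ± 444 in siGFP (SD, n = 4 each), with a log2 difference of 0.00 and an interval from −0.15 to 0.15. PGK1, which carries out an ATP-making step and is another known HIF target, averaged 2850 ± 156 in siESRP and 3049 ± 250 in siGFP (log2 difference −0.10, interval −0.26 to 0.07). GAPDH, often used as a loading control, had 0.04, ENO1 0.05, PKM 0.08 and LDHB 0.10. ENO2, the neuronal enolase, averaged 1194 ± 124 in siESRP and 991 ± 58.0 in siGFP and came closest (0.27, adjusted p = 0.0659). It passed with a trended, robust fit (adjusted p = 0.0459). The intervals of the other 6 genes ended between 0.07 and 0.22, and the lowest began at −0.26.

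Because quantile normalization gives rows of equal rank the same value, the brightest genes took few distinct values. LDHA stood at 7071 on siESRP replicate 3 and on siGFP replicates 1 and 3. With intensities as deposited, LDHA and GAPDH both had a log2 difference of 0.10, and neither passed. Whether such bright probes were saturated is not known from these values. GAPDH, LDHA, PGK1, ENO1, TPI1, ALDOA and PKM have closely similar copies elsewhere in the genome, so their levels are uncertain.

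Both pyruvate dehydrogenase kinases of the list rose. Another such kinase, PDK4, counted below with pyruvate and lactate handling, did not pass (limma adjusted p = 0.654). It was dimmer, at 81.3 ± 7.67 in siESRP and 76.8 ± 9.94 in siGFP (SD, n = 4 each). These enzymes phosphorylate and switch off pyruvate dehydrogenase, which keeps pyruvate out of mitochondria, and PDK1 is a known HIF target. PDK3 had intensities of 657, 652, 610 and 583 in siESRP, against 459, 399, 451 and 451 in siGFP. The groups stood well apart, and the rise was 1.42-fold (log2 difference 0.51 ± 0.06 SE, adjusted p = 0.00225). PDK1 had intensities of 911, 879, 919 and 949 in siESRP, against 740, 654, 807 and 659 in siGFP. It rose 1.28-fold (0.36 ± 0.08 SE, adjusted p = 0.0165), and siGFP replicate 3 came nearest to the siESRP values. The PDK1 call ended with arrays scaled to a common median (adjusted p = 0.0824).

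Of the list, the HIF subunit genes HIF1A and EPAS1 and the oxygen sensor EGLN3 did not pass. Another HIF prolyl hydroxylase, EGLN2, and the HIF partner ARNT2 passed and are given below with the other pathway genes. HIF1A averaged 4802 ± 142 in siESRP and 4513 ± 450 in siGFP (SD, n = 4 each), a log2 difference of 0.09 with an interval from −0.08 to 0.27. EPAS1, which encodes HIF-2α, averaged 2371 ± 218 in siESRP and 2063 ± 184 in siGFP (0.20, interval −0.01 to 0.41). EGLN3, an inducible HIF prolyl hydroxylase, averaged 481 ± 55.5 in siESRP and 457 ± 13.8 in siGFP (0.07, interval −0.14 to 0.27). HIF is controlled mainly through protein stability, which arrays do not measure.

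**Figure D2:**
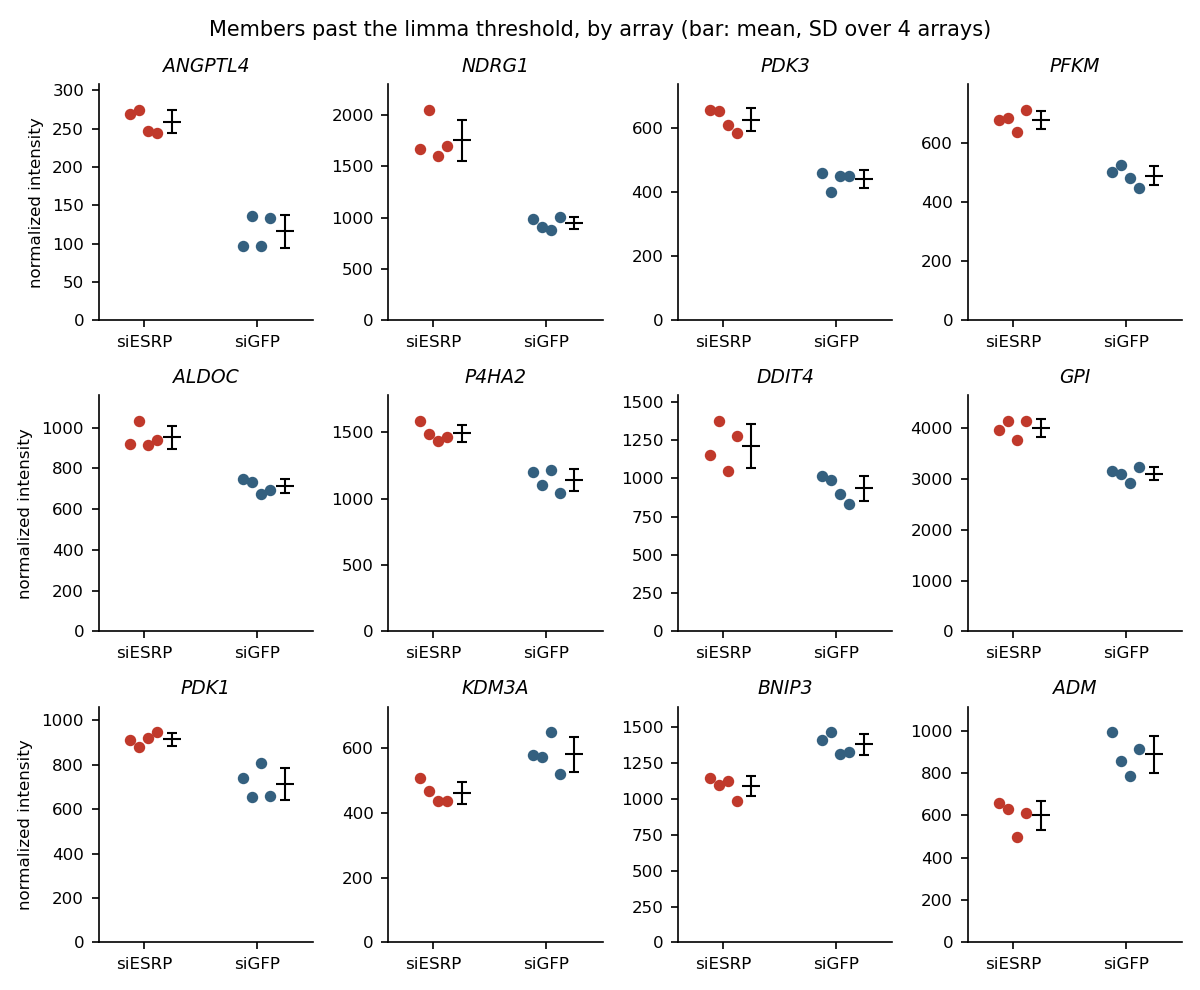
Normalized intensity (vertical axis, from 0) of the 12 genes that passed the threshold, with 1 point per array, siESRP in red and siGFP in blue, and bars for the mean and SD of 4 arrays. In all 12 panels the groups do not overlap, and ADM, BNIP3 and KDM3A are the 3 genes with siESRP below siGFP.

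Other oxygen-dependent hydroxylases and demethylases went both ways. P4HA2, a catalytic subunit of the prolyl hydroxylase that stabilizes collagen, had intensities of 1585, 1482, 1435 and 1464 in siESRP, against 1201, 1105, 1215 and 1043 in siGFP. It rose 1.31-fold (log2 difference 0.39 ± 0.06 SE, adjusted p = 0.00633), with every siESRP value above every siGFP value. A second and dimmer P4HA2 row disagreed, at 98.5 ± 7.14 in siESRP and 93.6 ± 9.80 in siGFP (log2 difference 0.08, adjusted p = 0.611). The call on the brighter row ended with median scaling (adjusted p = 0.0845). P4HA1, the related subunit, averaged 1241 ± 126 in siESRP and 1339 ± 35.2 in siGFP and did not pass. KDM3A, a HIF-induced histone H3 lysine demethylase, had intensities of 509, 469, 436 and 438 in siESRP, against 579, 575, 652 and 520 in siGFP. It was 1.25-fold lower (−0.33 ± 0.08 SE, adjusted p = 0.0334). This call ended without siESRP replicate 2, 3 or 4 (adjusted p = 0.0701, 0.0699 and 0.0855), without siGFP replicate 1, 2 or 3 (0.0743, 0.0707 and 0.0649), and with median scaling (0.119).

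The widest spread was among secreted, stress and turnover genes, where 3 rose, 2 fell and 3 did not pass. The share of these 8 genes that passed was 62.5%, against 20.2% of all rows and 28.4% of bright rows. ANGPTL4, a secreted inhibitor of lipoprotein lipase, had intensities of 269, 275, 248 and 245 in siESRP, against 97.5, 137, 97.4 and 134 in siGFP. Every siESRP array was above every siGFP array, and the rise was 2.25-fold on the log2(value + 1) scale (log2 difference 1.17 ± 0.13 SE, adjusted p = 0.00151). NDRG1, a differentiation-linked gene induced by hypoxia and by androgen, had intensities of 1666, 2053, 1606 and 1699 in siESRP, against 986, 914, 882 and 1005 in siGFP. It rose 1.85-fold (0.89 ± 0.09 SE, adjusted p = 0.000879), with siESRP replicate 2 the highest array.

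DDIT4, which restrains mTORC1 signalling under stress, had intensities of 1151, 1377, 1046 and 1279 in siESRP, against 1017, 987, 900 and 836 in siGFP. The groups were separated by little, and the rise was 1.29-fold (log2 difference 0.37 ± 0.10 SE, adjusted p = 0.0454). Its call ended without siESRP replicate 1, 2 or 4 (adjusted p = 0.0815, 0.0935 and 0.111), without siGFP replicate 1, 2, 3 or 4 (0.0576, 0.0705, 0.103 and 0.105), and with median scaling (0.149).

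ADM, the vasodilator peptide adrenomedullin, had intensities of 657, 633, 498 and 612 in siESRP, against 996, 859, 784 and 915 in siGFP. It was 1.48-fold lower (log2 difference −0.57 ± 0.11 SE, adjusted p = 0.0119), and no siESRP array reached the lowest siGFP array. BNIP3, an outer-membrane protein that marks mitochondria for autophagy, had intensities of 1143, 1098, 1121 and 986 in siESRP, against 1409, 1467, 1316 and 1325 in siGFP. It was 1.27-fold lower (−0.34 ± 0.06 SE, adjusted p = 0.00980), also without overlap. ADM and BNIP3 are both known HIF targets, as are ANGPTL4 and NDRG1, which rose.

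Of the rest, VEGFA, the vascular endothelial growth factor, had intensities of 1288, 1215, 1275 and 1340 in siESRP, against 1201, 1001, 1125 and 1027 in siGFP. The groups did not overlap, but its log2 difference of 0.24 was just short of the threshold (adjusted p = 0.0529). It passed with a pseudocount of 16, with array weights and with a trended, robust fit (0.0468, 0.0318 and 0.0447), and without siGFP replicate 1 (0.0268). BNIP3L, the paralogue of BNIP3, averaged 2012 ± 164 in siESRP and 1827 ± 71.0 in siGFP and did not pass. CA12, a membrane carbonic anhydrase, was near background at 28.7 ± 1.03 in siESRP and 26.0 ± 1.11 in siGFP. The sign of its difference turned between quantile normalization (0.13) and both the deposited scale (−0.10) and median scaling (−0.11).

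With intensities as deposited, where array medians differ, 3 of the 12 calls held, those of ANGPTL4, NDRG1 and PDK3 (adjusted p = 0.00255, 0.00394 and 0.0316). The other 9 kept their direction, with adjusted p from 0.0621 for GPI to 0.275 for KDM3A.

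Related genes were compared within each array, through the log2 ratio of a pair, in which a scale factor common to an array cancels, apart from the pseudocount. Of 14 pairs listed, 11 had both genes measured. In 5 pairs the ratios of the siESRP and siGFP arrays did not overlap (exact two-sided permutation p = 0.0286, the smallest that 4 against 4 arrays can give). After Benjamini-Hochberg adjustment over the 11 pairs these exact permutation p-values became 0.0629, so no pair passed 0.05. The P4HA2 to P4HA1 ratio had the largest shift, 0.50, at 0.32 to 0.61 on the siESRP arrays and −0.18 to 0.11 on the siGFP arrays, around the siGFP mean. The BNIP3L to BNIP3 ratio shifted by 0.48, with 0.34 to 0.76 in siESRP and −0.15 to 0.13 in siGFP. The ALDOC to ALDOA ratio shifted by 0.42 and was the tightest in siGFP, at 0.29 to 0.50 in siESRP and −0.04 to 0.02 in siGFP. The PFKM to PFKL ratio shifted by 0.34, and the PFKP to PFKL ratio by −0.15. These 2 pairs share the PFKL row. The PFKP to PFKL groups were barely separated, at −0.242 to −0.073 in siESRP and −0.069 to 0.050 in siGFP. The LDHB to LDHA, HK2 to HK1 and EPAS1 to HIF1A ratios shifted by 0.10, 0.13 and 0.11, with overlapping groups (exact permutation p = 0.171, 0.486 and 0.486). PDK3 to PDK1, both of which rose, shifted by 0.15 (exact permutation p = 0.171). PFKFB4 to PFKFB3 and ENO2 to ENO1 shifted by 0.31 and 0.21 (exact permutation p = 0.114 for both).

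**Figure D3:**
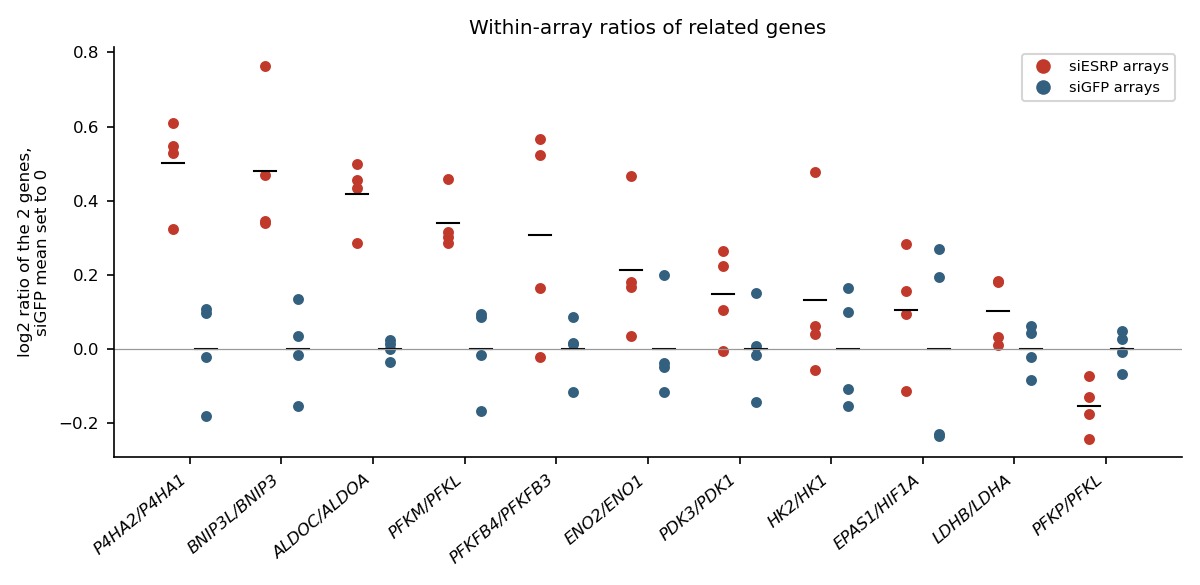
Within-array log2 ratio of 2 related genes (vertical axis, siGFP mean set to 0) for 11 pairs, with 1 point per array, siESRP in red to the left of siGFP in blue, and black lines for group means. The groups do not overlap in 5 pairs, P4HA2/P4HA1, BNIP3L/BNIP3, ALDOC/ALDOA, PFKM/PFKL and, by a narrow margin, PFKP/PFKL.

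Other genes of the same pathways, 85 in 6 lists, were counted for context, and 71 had a row of their own. Of these 16 rose, 5 fell and 50 did not pass, a share of 29.6%, against 20.2% of all rows and 28.4% of bright rows. Their median log2 difference was 0.02. Among 8 regulators of HIF, ARNT2, an alternative HIF partner, rose 1.48-fold, while the prolyl hydroxylase EGLN2 and the coactivator CREBBP were 1.25-fold and 1.27-fold lower (adjusted p = 0.0107, 0.0129 and 0.00664). The share of the 8 that passed was 37.5%. VHL and ARNT did not pass. HIF1AN, another of these regulators, averaged 893 ± 148 in siESRP and 1167 ± 49.8 in siGFP (SD, n = 4 each). Its groups did not overlap, but its log2 difference of −0.40 was short of the threshold (adjusted p = 0.0640).

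Of 13 further glycolytic enzymes and isoenzymes 2 rose, a share of 15.4%, against 20.2% of all rows and 28.4% of bright rows. TIGAR, a p53-induced phosphatase that lowers a phosphofructokinase activator, averaged 1905 ± 123 in siESRP and 1365 ± 92.2 in siGFP (SD, n = 4 each), a 1.40-fold rise (adjusted p = 0.00389). HKDC1, a hexokinase-like gene, averaged 74.8 ± 6.92 in siESRP and 42.7 ± 5.20 in siGFP (adjusted p = 0.00279). It was dim, with a siGFP mean under 50, and its call ended with median scaling (adjusted p = 0.0534) and with intensities as deposited (0.0852). Of 10 genes of pyruvate and lactate handling, PDP1, the phosphatase that opposes the pyruvate dehydrogenase kinases, rose 1.53-fold, with values of 2229 to 2489 on the siESRP arrays against 1466 to 1603 on the siGFP arrays (adjusted p = 0.000481). PDHB, a pyruvate dehydrogenase subunit, was 1.22-fold lower (adjusted p = 0.0427). The share of these 10 genes that passed was 20%, about that of all rows and below that of bright rows. The kinases PDK1 and PDK3 and the opposing phosphatase PDP1 rose, while the kinase PDK4 did not pass. The PDK1 call depended on the scaling, as given above. The kinase PDK2 and the phosphatase PDP2 had no row of their own.

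Of 5 measured pentose phosphate genes 3 rose, PGD 1.23-fold, TKT 1.24-fold and RPE 1.27-fold (adjusted p = 0.00897, 0.0235 and 0.0427). Of 8 glycogen genes 2 rose, the phosphorylase PYGL 1.16-fold and the phosphoglucomutase PGM1 1.23-fold (adjusted p = 0.0271 and 0.0314). The shares that rose in these short lists were 60% and 25%, against 10.9% of all rows and 15.0% of bright rows. When 1 array was left out, the calls of PDHB, RPE, PYGL, PGM1 and TKT each ended for 4 to 7 of the 8 arrays, with adjusted p of up to 0.102, 0.105, 0.0720, 0.0821 and 0.0612. With median scaling the calls of all 3 pentose phosphate genes ended, PGD, TKT and RPE (adjusted p = 0.0630, 0.0788 and 0.176), as did those of PDHB, PYGL and PGM1 (0.0711, 0.0575 and 0.0910).

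Of 27 further hypoxia-induced genes, 7 rose, 2 fell and 18 did not pass, with a median of 0.13. The share that passed, 33.3%, was near the 28.4% of bright rows, against 20.2% of all rows. STC2, the glycoprotein stanniocalcin 2, was 2.16-fold lower, at 765, 611, 734 and 738 in siESRP, against 1617, 1534, 1603 and 1376 in siGFP (adjusted p = 0.000392). LOX, which crosslinks collagen, had intensities of 323, 298, 291 and 355 in siESRP, against 203, 176, 186 and 150 in siGFP, and rose 1.77-fold (adjusted p = 0.00238). The related LOXL2 rose 1.44-fold and the transcriptional repressor BHLHE40 1.43-fold (adjusted p = 0.00483 and 0.00253). The groups did not overlap for any of these 4 genes. The other gene that fell, MXI1, which antagonizes MYC, was named after its value was seen. It averaged 274 ± 25.3 in siESRP and 356 ± 38.0 in siGFP (SD, n = 4 each, limma adjusted p = 0.0370), and its call ended for 7 of the 8 arrays when 1 was left out (adjusted p up to 0.0859). With intensities as deposited, 6 of the 21 calls among the other pathway genes held, those of ARNT2, TIGAR, PDP1, ERO1A, LOX and STC2.

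**Figure D4:**
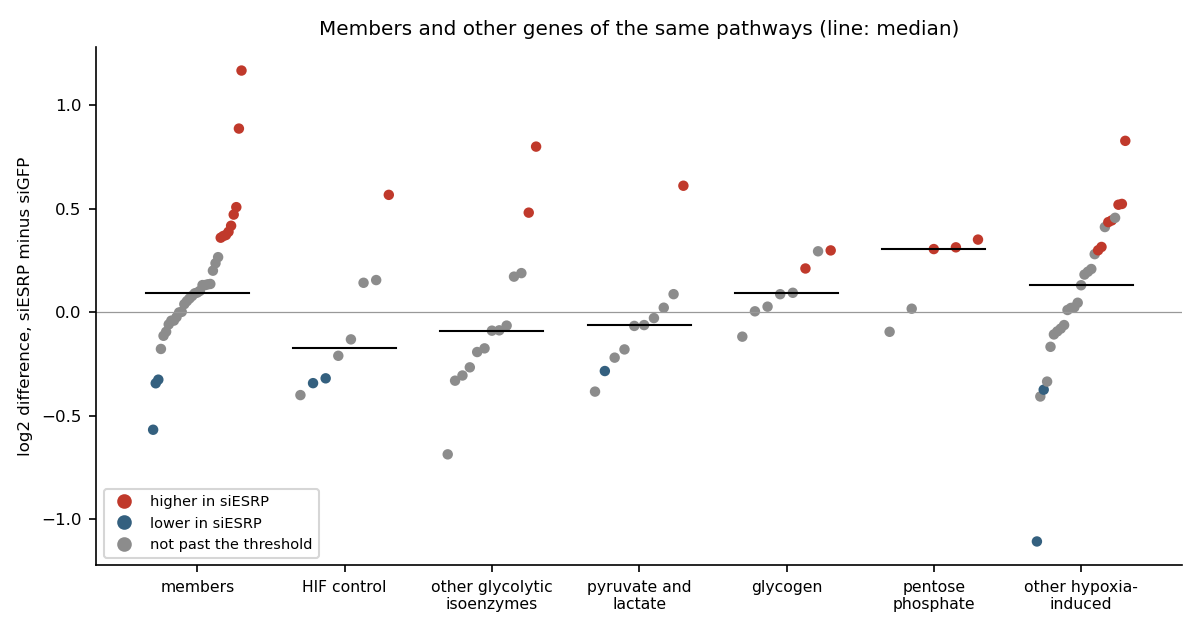
Log2 difference (siESRP minus siGFP, vertical axis) of the 35 listed genes and of 71 other genes in 6 lists, with 1 point per gene and a line at each list's median. Red points rose, blue points fell and grey points did not pass. Medians run from −0.17 for HIF regulators to 0.30 for the pentose phosphate pathway, and STC2 is the lowest point at −1.11.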

How the data were processed

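Per the labels, RNA of 4 siESRP and 4 siGFP samples was hybridized to Affymetrix human exon arrays, 1 array a sample. The authors deposited linear intensity values, 1 per gene-level row. How they corrected background, summarized probes and scaled arrays is not given in the sources used here. On each array 2.70% to 4.02% of rows hold negative values.

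Linear intensities were quantile normalized between arrays, negative values were floored at 0, and log2(value + 1) was tested with limma 3.58.1 (R 4.3.3; lmFit, eBayes), two-sided, adjusted by Benjamini-Hochberg over 18495 rows at 0.05. Adjusted p-values of genes are from this fit unless the sentence names another setting, and intervals are unadjusted. The floor at 0 follows from values without a logarithm. Fold changes are on the log2(value + 1) scale, and SDs are of normalized intensity. The steps were tested on simulated data, where 51 of 100 changes of 1.5-fold and 85 of 100 of 2-fold were recovered. There 12 unchanged rows were called. Fewer rows were changed in the simulation than were called in the data, and changes under 1.5-fold were not simulated. Precision is limited by the number of arrays.

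Symbols came from the platform annotation, updated by Entrez ID to RefSeq (GRCh38.p14). Where several rows carried 1 symbol, the row with the highest mean stood for the gene. The listed genes, other lists and tests were chosen with earlier results of these data known. Every listed gene past the threshold is given by array, and of each other list up to 4 with the smallest p. The alternatives were the deposited scale, median scaling, dropping dim rows, another pseudocount, other variance models and thresholds, averaging a gene's rows, the replicate number as a block and leaving out each array. Promoters came from RefSeq.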

Additional observations from a re-analysis of the deposited data

Results flagged for a closer look

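Each group of 4 arrays was searched for an array far from the other 3, for the 35 listed genes and both siRNA targets. The gap ratio passed Dixon's 95% critical value in 3 of 74 groups, where chance gives about 1 in 20, or 3.7. HK2 had a ratio of 0.875, with siGFP replicate 4 low. PGK1 had a ratio of 0.887, with siESRP replicate 3 high. PDK3 had a ratio of 0.862, with siGFP replicate 2 low. The 3 flags fell on 3 different arrays, and PDK3 kept its call without siGFP replicate 2.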

How the results depend on the processing

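No call of a listed or other pathway gene changed sign under any alternative run. The 9 genes that rose and 3 that fell became 3 and 0 with values as deposited, 2 and 0 with at least 1.5-fold, and 8 in all with median scaling. At adjusted p under 0.01, 1 of the 3 fallers passed. Leaving out 1 array gave 8 to 9 risers and 2 to 3 fallers, and 10 of the 12 calls survived every omission, all but KDM3A and DDIT4. The median over listed genes was 0.12 as deposited, where that over all rows was −0.10, and 0.09 to 0.12 with 1 array left out. With median scaling it was 0.11, and −0.11 over all rows. Called rows in the whole table numbered 3729, and 1673 as deposited, 1808 at 0.01, 1309 with 1.5-fold, and 2719 to 3793 with 1 array left out. Other pathway genes rose in 16 cases and fell in 5. These became 5 and 1 as deposited, 9 and 2 at 0.01, and 3 and 1 with 1.5-fold. Median scaling gave 9 risers, dropping the dimmest 25% of rows gave 8 fallers, and leaving out 1 array gave 11 to 17 risers and 3 to 7 fallers. The cause of these changes was not tested. Deviations from the group mean had correlations of −0.28 to 0.16 between same-numbered siESRP and siGFP arrays. Between differently numbered arrays they ran from −0.35 to 0.51. Such correlations cannot settle whether the numbers pair samples. With the replicate number as a block, 2292 rows were called, PDK1, KDM3A and DDIT4 missed the threshold (adjusted p = 0.0586, 0.0895 and 0.0924), and other pathway genes gave 10 risers and 2 fallers. CA12 is near background, and the deposited values carry no detection call.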
